A study of Homo sapiens with 12 samples.

Results

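The genes described here are 39 genes of the glutathione, thioredoxin and NRF2 antioxidant systems, out of 57500 genes counted in HepG2 cells, a human hepatocellular carcinoma line. They were chosen by name from their textbook roles, with earlier results of these data known, and all 39 were found in the count tables. RNA sequencing covered 3 groups of 4 libraries each, namely wild-type control cells (WT), cells carrying an shRNA against TST (shTST) and cells overexpressing TST (overTST). TST, or thiosulfate sulfurtransferase, is a mitochondrial enzyme that converts cyanide to thiocyanate, and the comparisons ask how cells with less or more of it differ from wild-type cells. All groups were kept in ordinary medium with 0.4 mM glycine for 24 h. Both modified lines were made with lentivirus, and the overexpressed TST is a codon-optimized sequence driven by a CMV promoter in a vector with blasticidin resistance. The controls are described as wild type, so the viral vector and the change in TST cannot be told apart. The labels do not say whether replicates of a line came from separate transductions, so the p-values measure the spread between these libraries.

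NRF2, encoded by NFE2L2, is a transcription factor that KEAP1 marks for degradation in unstressed cells. Oxidants and electrophiles modify cysteines of KEAP1, NRF2 accumulates, pairs with a small MAF protein and binds antioxidant response elements near genes for glutathione synthesis, thioredoxin recycling, heme breakdown and NADPH supply. Glutathione is built from glutamate, cysteine and glycine, and feeds the glutathione peroxidases and glutaredoxins, while thioredoxin feeds the peroxiredoxins. Liver cells hold much of both systems because they handle drugs, bile acids and peroxides.

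Promoters are shown for the members that differed from WT in both lines and have a promoter sequence to compare, together with that of ME1, which had no counts at all. These are the 250 bases before the RefSeq start (GRCh38.p14), read 5′ to 3′ on the strand of the gene. They lie at chr20:653201-653450 (minus strand, SRXN1), chr16:83952990-83953239 (plus, OSGIN1), chr1:93909431-93909680 (minus, GCLM), chr5:95822727-95822976 (minus, GLRX) and chr6:83431052-83431301 (minus, ME1). Capitals mark matches, on either strand, to the core of the antioxidant response element, TGACNNNGC, or to the variant TGAGNNNGC. Each motif is 9 bases long.
SRXN1: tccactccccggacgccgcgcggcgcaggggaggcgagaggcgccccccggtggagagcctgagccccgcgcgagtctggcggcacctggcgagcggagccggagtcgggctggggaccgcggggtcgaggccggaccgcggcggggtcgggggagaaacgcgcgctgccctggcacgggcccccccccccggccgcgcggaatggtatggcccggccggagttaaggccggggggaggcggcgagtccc
OSGIN1: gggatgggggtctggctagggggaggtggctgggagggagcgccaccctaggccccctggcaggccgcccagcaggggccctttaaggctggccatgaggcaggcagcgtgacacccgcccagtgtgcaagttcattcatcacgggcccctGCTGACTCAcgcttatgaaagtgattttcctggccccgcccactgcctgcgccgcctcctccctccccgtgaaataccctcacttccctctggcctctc
GCLM: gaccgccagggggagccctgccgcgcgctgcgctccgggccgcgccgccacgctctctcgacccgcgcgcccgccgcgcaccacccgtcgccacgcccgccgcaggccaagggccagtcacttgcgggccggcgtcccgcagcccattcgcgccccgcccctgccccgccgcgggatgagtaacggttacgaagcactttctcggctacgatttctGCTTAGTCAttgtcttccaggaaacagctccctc
GLRX: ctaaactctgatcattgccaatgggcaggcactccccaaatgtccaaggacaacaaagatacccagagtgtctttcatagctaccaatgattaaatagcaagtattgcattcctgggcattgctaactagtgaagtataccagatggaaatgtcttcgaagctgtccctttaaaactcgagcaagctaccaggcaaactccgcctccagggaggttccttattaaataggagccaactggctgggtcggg
ME1: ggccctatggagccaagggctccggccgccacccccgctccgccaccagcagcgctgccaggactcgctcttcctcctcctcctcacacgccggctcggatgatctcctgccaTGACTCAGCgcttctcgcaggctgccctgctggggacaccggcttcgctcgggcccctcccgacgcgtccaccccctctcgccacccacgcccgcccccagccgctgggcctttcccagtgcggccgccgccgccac
The promoter of GCLM held TGACTAAGC on the opposite strand, 34 to 26 bases before the start. That of OSGIN1 held TGAGTCAGC on the opposite strand, 99 to 91 bases before the start, and that of ME1 held TGACTCAGC on its own strand, 137 to 129 bases before the start. No match lay in the windows of SRXN1 and GLRX. The windows of OSGIN1 and GLRX lie wholly within the gene models counted here, and those of SRXN1, GCLM and ME1 in part. A match, or the lack of 1, therefore refers to the RefSeq start used and not to every start of the gene. RefSeq gave 47 promoters for 32 of the 39 members, and 15 of these 47 (31.9%) held at least 1 of the motifs, against 23.9% of 35116 promoters. The core alone was found in 17.0% of the members' promoters and in 10.9% of all of them. A match here is a match of letters, not evidence of binding.

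The libraries held 22911380 to 45120508 counts, and those of overTST (up to 27414142) were all smaller than those of the other lines. Mitochondrially encoded genes took 6.91 to 12% of counts in WT, 6.84 to 8.65% in shTST and 10.8 to 11.7% in overTST. TST itself stood at 47.2, 47.5, 52.8 and 48.5 CPM (counts scaled to a common library size) in the WT libraries, at 33.0, 33.5, 36.5 and 33.5 in shTST and at 51.8, 56.0, 61.6 and 62.1 in overTST. It fell in shTST (log2 fold change −0.52 ± 0.055, standard error, edgeR quasi-likelihood test, adjusted p = 3.2e-06) and rose in overTST (0.24 ± 0.062, adjusted p = 0.00384), but after correction for gene length the second value was 0.10 (adjusted p = 0.201). Reads of the codon-optimized transgene need not map to the native gene, so the overTST value does not measure total TST. All 10 hepatocyte markers examined reached 1 CPM in these cells, as did 2 of 5 fibroblast, 1 of 4 endothelial and 2 of 4 blood cell markers. The summed fibroblast markers were 21.6 to 25.2 CPM in WT, 17.0 to 19.4 in shTST and 15.9 to 17.9 in overTST. PDGFRB made up most of this sum (a mean of 21.8 CPM in WT, 16.6 in shTST and 16.3 in overTST). The summed endothelial markers were 2.51 to 3.29, 1.81 to 2.16 and 3.39 to 3.91 CPM, and 1 endothelial marker had no counts. By edgeR, PECAM1 rose in overTST (0.60, adjusted p = 0.00278) and CDH5 fell (−1.31, adjusted p = 0.0129). CDH5 was low, at a mean of 0.555 CPM in WT and 0.229 in overTST. Its call was lost with DESeq2 and without WT replicate 2 or overTST replicate 3. The ranges of the hepatocyte and blood cell sums overlapped between lines, but single hepatocyte markers moved in both directions by edgeR. In shTST ALB (0.39), AFP (0.49), FGB (0.44) and TF (0.41) were called higher, and TTR (−0.33) and APOB (−0.19) lower. In overTST APOA1 (0.24), APOA2 (0.23) and TTR (0.16) were called higher, and APOB (−0.55) and HNF4A (−0.15) lower. After length correction APOB kept its overTST call, the others named lost theirs, and FGB (−0.16) and TF (0.27) were called. In shTST the TF call was lost with limma-voom and with robust moderation, described below. That of APOB was lost with upper-quartile scaling and without WT replicate 1 or 4 or any 1 shTST library. In overTST the APOA1 call was also lost with DESeq2, limma-voom and robust moderation and without WT replicate 2 or overTST replicate 3 or 4. That of TTR was lost without WT replicate 1 or overTST replicate 3 or 4. The part of these markers in the results was not tested. In bulk RNA, fewer cells of a type and less RNA per cell cannot be told apart.

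Levels of different genes were compared per exonic length, as TPM, in WT. This length counts the annotated exons of a gene, so a long gene model lowers its TPM. TKT, with 9507 exonic bases, had a mean of 566 CPM and 168 TPM in WT. GPX2, with 1499 exonic bases, had 358 CPM and 673 TPM. By TPM, the peroxide-reducing enzymes led the list. PRDX1, a cytosolic peroxiredoxin, stood at 1470 ± 157 TPM (SD, n = 4), and its WT libraries did not overlap with those of GPX2, the next gene at 673 ± 75.3 TPM. From GPX2 down to BLVRA (112 ± 9.35 TPM) the range of each gene over the WT libraries overlapped with that of its neighbour. The order here is that of the mean TPM over all libraries, and genes were not compared within each library. The regulators KEAP1 (91.3 ± 9.28 TPM) and NFE2L2 (77.7 ± 6.37 TPM) were in the middle of the list. The rate-limiting enzyme of glutathione synthesis was low by TPM, with its catalytic subunit GCLC at 27.8 ± 3.47 TPM and its modifier subunit GCLM at 17.6 ± 1.48 TPM. Their gene models are long, at 8463 and 5420 exonic bases.

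**Figure D1:**
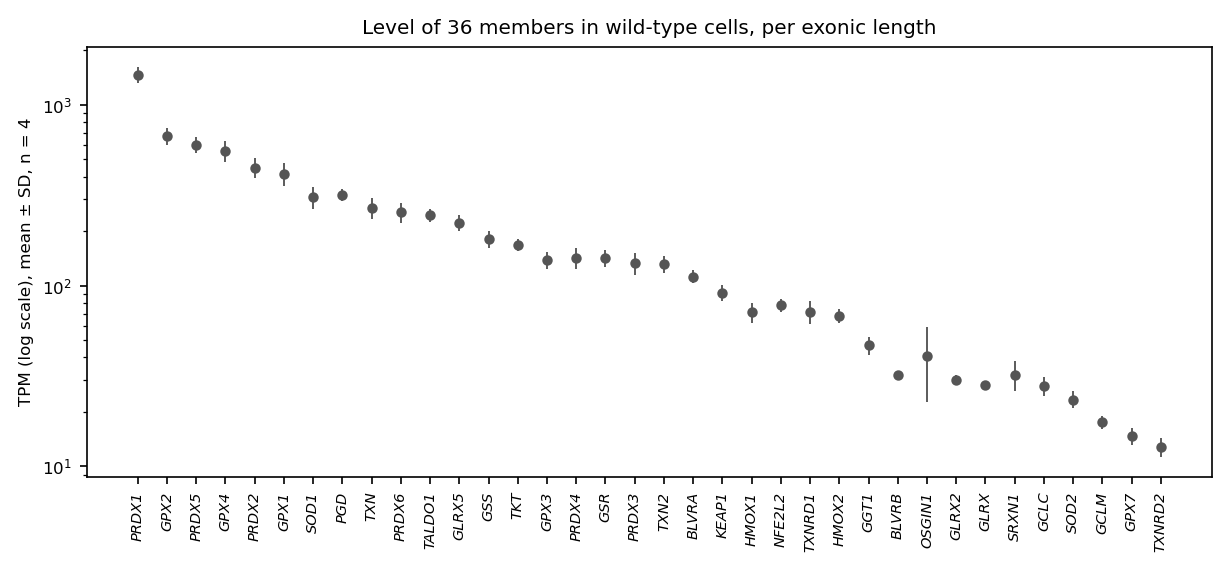
Level of each member in WT, in TPM on a log axis, for the 36 members with a mean above 1 TPM; points are means and bars are SD of 4 libraries. PRDX1 stands at 1470 TPM, above GPX2 at 673 TPM, and TXNRD2 is the lowest at 12.8 TPM.

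At the other end were 3 members that were too low to test. ME1, the cytosolic malic enzyme and a source of NADPH, had 0 counts in every library, which allows up to 0.00834 CPM over the 359610500 counts of all libraries. GPX8, a peroxidase of the endoplasmic reticulum, had 1 to 7 counts per library, and SOD3, the secreted superoxide dismutase, had 0 to 6. The other 36 members entered every comparison.

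In shTST, 10 of the 36 members changed against WT, 9 of them downward, whereas 16.1% of all genes tested were called. The members that fell were OSGIN1, SRXN1, GLRX, KEAP1, GCLM, BLVRB, TKT, GGT1 and HMOX2, and HMOX1 was the member that rose. Among all genes 6.69% were higher and 9.40% were lower, so that 41.6% of all calls were higher, a share that was 52.7% with upper-quartile scaling. The median log2 fold change of the members was −0.053, beside 0.0040 for all genes. In 9 of the 10 the WT and shTST libraries did not overlap in CPM, SRXN1 being the exception. Of all 36 members tested, called or not, 10 did not overlap, beside 19.1% of all genes tested. With length correction all 10 calls were kept and TALDO1 was added, so that 1 member was higher and 10 were lower, beside 8.05% and 9.88% of all genes. TALDO1 (−0.12, adjusted p = 0.0568 in the main edgeR test, and 0.0294 to 0.211 over the alternatives) was also called lower by DESeq2, limma-voom and robust moderation. Of the 10 calls, 5 (KEAP1, SRXN1, HMOX1, GLRX and TKT) were kept under all 17 alternatives that leave the replicate block out and use each gene's own spread.

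In overTST, 21 of the 36 members changed, 15 upward and 6 downward, with 33.9% of all genes called. In 11 of the 21 the groups did not overlap in CPM. Of all 36 members tested, called or not, 12 did not overlap, beside 30.4% of all genes tested. Those that rose were TXN, TXN2, PRDX1 (which turned to −0.012 with a correction for gene length), PRDX5, PRDX6, GPX1, GPX3, GPX4, GLRX, GLRX5, SOD1, GSS, BLVRA, HMOX1 and TALDO1. Those that fell were OSGIN1, SRXN1, NFE2L2, GCLC, GCLM and TXNRD1. Among all genes 15.7% were higher and 18.2% lower, and the median was 0.10 for the members and 0.0019 for all genes. With a correction for gene length 15 of these 21 calls were lost, and those of TXN, GPX3 and GLRX (higher) and of SRXN1, OSGIN1 and NFE2L2 (lower) were kept. SOD2 and TKT (higher) and GSR (lower) were called that had not been, which gave 9 calls, beside 28.5% of all genes (14.2% higher and 14.3% lower). The calls kept under all 17 alternatives were those of TXN, GPX3, NFE2L2 and SRXN1. The WT libraries are the same in both comparisons, so the comparisons are not independent.

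**Figure D2:**
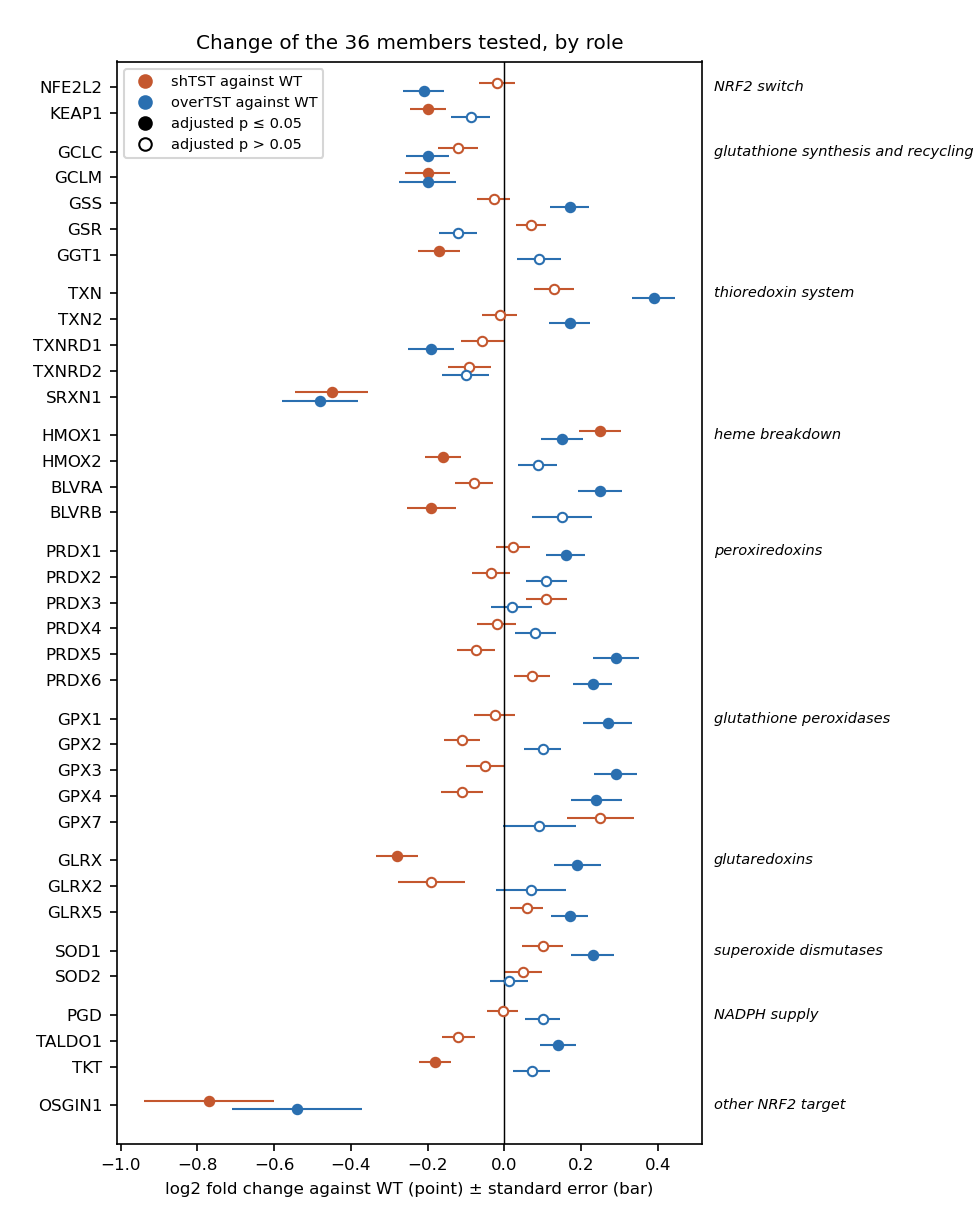
Log2 fold change against WT of the 36 members tested, by role; points are estimates, bars are standard errors, and filled points are called at an adjusted p of 0.05 or less. SRXN1 and OSGIN1 lie far to the left in both lines, at −0.45 and −0.77 in shTST and −0.48 and −0.54 in overTST.

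The regulators moved in different lines. NFE2L2 (ENSG00000116044, chromosome 2, 177227595 to 177392697, GRCh38) stood at 158, 172, 165 and 165 CPM in WT, at 172, 170, 151 and 158 in shTST and at 153, 130, 149 and 138 in overTST. Every overTST library was below every WT library, while the shTST libraries spread over and below the WT range. NFE2L2 fell in overTST (−0.21 ± 0.054, adjusted p = 0.00372; −0.14 and adjusted p = 0.0314 after length correction). In shTST its value was −0.02 ± 0.047 (95% interval −0.12 to 0.078, adjusted p = 0.82), and shTST exceeded overTST by 0.19 ± 0.053 in the direct test (adjusted p = 0.00738). An overlapping gene on the same strand covers 17.6% of its exonic bases.

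KEAP1 (ENSG00000079999, chromosome 19, 10486120 to 10503741), the adaptor that brings NRF2 to its ubiquitin ligase, stood at 117, 133, 120 and 118 CPM in WT, at 103, 107, 106 and 108 in shTST and at 112, 116, 113 and 119 in overTST. All shTST libraries were below all WT libraries. KEAP1 fell in shTST (−0.20 ± 0.047, adjusted p = 0.00566, and 0.00133 to 0.0292 over the alternatives). In overTST its value was −0.087 ± 0.051 (95% interval −0.19 to 0.019, adjusted p = 0.202). The difference between shTST and overTST was −0.11, with a 95% interval of −0.21 to −0.016 and an adjusted p of 0.0683 by edgeR. The difference was called by DESeq2 (0.0493), with upper-quartile scaling (0.0456) and with the replicate block (0.0439), but not by limma-voom (0.073), and the libraries of the 2 lines did not overlap.

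SRXN1, sulfiredoxin, repairs peroxiredoxins that have been overoxidized by peroxide. It lies on chromosome 20, 646615 to 653370 (ENSG00000271303), and its promoter is the first of those printed above. It stood at 31.1, 37.6, 25.4 and 28.6 CPM in WT, at 20.1, 25.9, 20.3 and 23.8 in shTST and at 21.9, 26.0, 21.4 and 19.1 in overTST. The lowest WT library lay just below the highest library of each line, and the remaining WT libraries were above both lines. SRXN1 fell in shTST (−0.45 ± 0.096, adjusted p = 0.00275) and in overTST (−0.48 ± 0.098, adjusted p = 5.4e-04), with adjusted p-values of 4.4e-04 to 0.0324 and 6.3e-05 to 0.00666 over the alternatives. The difference between the lines was 0.026 (95% interval −0.19 to 0.24). Another annotated gene on the same strand shares 85.0% of the exonic bases of SRXN1 and held 73 counts in all libraries, beside 9326 for SRXN1. How reads on shared bases were counted is not given in the sources used here, so the level of SRXN1 is uncertain.

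OSGIN1, an NRF2 target linked to growth inhibition under oxidative stress, showed the largest log2 fold changes among the members, and their size depends on 1 library. It lies on chromosome 16, 83948282 to 83966332 (ENSG00000140961). WT replicate 2 stood at 83.6 CPM and the other WT libraries at 40.6, 38.3 and 38.1. The shTST libraries stood at 26.0, 32.3, 28.4 and 31.7 CPM and the overTST libraries at 30.0, 39.5, 36.7 and 33.0. All shTST libraries were below all WT libraries, and those of overTST overlapped with WT. The log2 fold change was −0.77 ± 0.17 in shTST (adjusted p = 0.00369) and −0.54 ± 0.17 in overTST (adjusted p = 0.0136). Without WT replicate 2 the values were −0.40 in shTST (adjusted p = 2.1e-04) and −0.17 in overTST (adjusted p = 0.0955). The main test draws the variance of each gene toward that of genes of like abundance. With robust moderation, which lets a gene of unusual spread keep its own variance, the adjusted p was 0.151 in shTST and 0.236 in overTST. DESeq2 (0.0522 and 0.169) and limma-voom (0.186 and 0.298) also made no call. A lower level in shTST was thus present in every library, but its size and its call depend on how WT replicate 2 is treated.

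GCLM (ENSG00000023909, chromosome 1, 93885205 to 93909456) stood at 33.2, 36.3, 32.2 and 34.0 CPM in WT, at 31.5, 29.9, 27.8 and 29.2 in shTST and at 30.2, 25.8, 34.3 and 27.6 in overTST. All shTST libraries were below the WT libraries, and overTST replicate 3 lay within the WT range. GCLM fell by 0.20 on the log2 scale in shTST (standard error 0.058, adjusted p = 0.0224) and in overTST (standard error 0.075, adjusted p = 0.0397). The shTST call was lost in the fit of all 12 libraries (adjusted p = 0.0554), without WT replicate 2 (0.067) or 4 (0.0559) and without shTST replicate 3 (0.0784) or 4 (0.0691). The overTST call was lost without WT replicate 1 (0.0592), 2 (0.11) or 4 (0.0769), without overTST replicate 2 (0.169) or 4 (0.116), with upper-quartile scaling (0.0684) and after length correction (0.12).

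HMOX1, heme oxygenase 1, opens the heme ring and is a classical gene of the oxidative stress response. It lies on chromosome 22, 35380361 to 35394214 (ENSG00000100292), and stood at 58.6, 59.8, 65.7 and 58.3 CPM in WT, at 70.6, 66.0, 78.5 and 73.6 in shTST and at 65.9, 67.9, 64.5 and 70.1 in overTST. Every shTST library was above every WT library, and the overTST libraries overlapped with WT replicate 3. HMOX1 rose in shTST (0.25 ± 0.055, adjusted p = 0.00334, and 4.0e-04 to 0.0149 over the alternatives). In overTST it passed the test (0.15 ± 0.054, adjusted p = 0.0388), but not after length correction (0.037, adjusted p = 0.621), nor without WT replicate 1 (0.104), 2 (0.0714) or 4 (0.11) or overTST replicate 2 (0.08) or 4 (0.122). The lines differed by 0.11 (95% interval −0.0068 to 0.22).

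GLRX, a glutaredoxin that removes glutathione from protein thiols, differed from WT in opposite directions in the 2 lines. It lies on chromosome 5, 95751319 to 95823005 (ENSG00000173221), and stood at 60.0, 69.7, 63.3 and 69.6 CPM in WT, at 54.3, 57.9, 52.4 and 52.1 in shTST and at 72.2, 72.3, 83.2 and 72.0 in overTST. The 3 groups did not overlap. GLRX fell in shTST (−0.28 ± 0.055, adjusted p = 0.00168) and rose in overTST (0.19 ± 0.061, adjusted p = 0.0171; 0.27 and adjusted p = 0.00118 after length correction). The overTST call was lost without WT replicate 1 (0.15, adjusted p = 0.081) or without overTST replicate 3, the highest library (0.14, adjusted p = 0.116). In the direct test shTST was lower than overTST by a log2 fold change of −0.47 ± 0.059 (adjusted p = 2.9e-06), and this call was kept under all 21 alternatives.

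**Figure D3:**
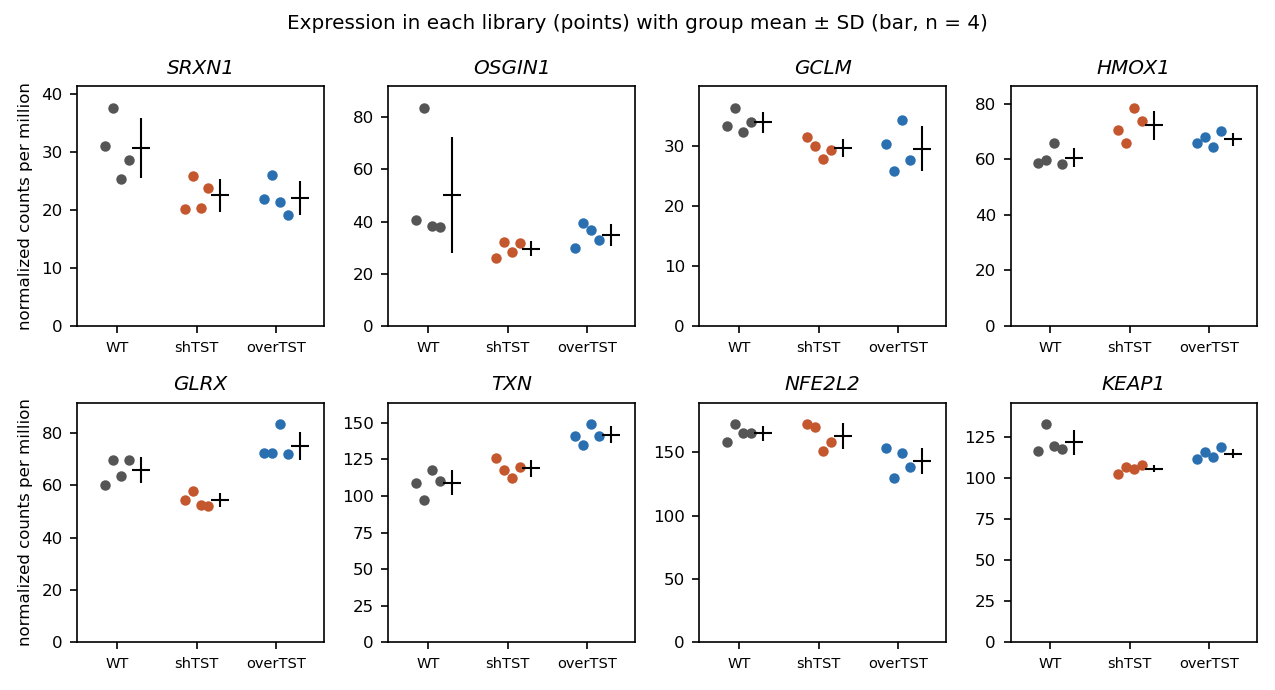
Normalized CPM of 8 members in each library, with points for libraries and bars for the mean ± SD of 4 libraries. In OSGIN1 1 WT library stands apart at 83.6 CPM, and in GLRX the 3 groups do not overlap.

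The remaining members that fell in shTST did so by small amounts. BLVRB, a biliverdin reductase, stood at 17.9, 19, 19 and 20.0 CPM in WT, at 16.6, 16.8, 17.0 and 16.1 in shTST and at 17.8, 22.6, 21.1 and 22.8 in overTST. The shTST libraries were all below WT. Its log2 fold change was −0.19 ± 0.064 with an adjusted p of 0.0488, and the call was lost without any 1 library other than WT replicate 1 (adjusted p of up to 0.162, without WT replicate 4) and under 6 of the 9 alternatives that leave out no library and have no replicate block. TKT, a transketolase of the pentose phosphate pathway, fell by 0.18 on the log2 scale (adjusted p = 0.0065) under every alternative. GGT1, which cleaves extracellular glutathione, had −0.17 ± 0.055 (adjusted p = 0.0341), and the call was lost without WT replicate 3 (0.105) or 4 (0.0685) or shTST replicate 1 (0.169) or 2 (0.0944) and with upper-quartile scaling (0.061). GGT1 has near-identical family members that can share reads. SNRPD3, on the same strand, covers 6.9% of the exonic bases of GGT1 and held 47511 counts in all libraries, beside 25799 for GGT1. HMOX2, the constitutive heme oxygenase, had −0.16 ± 0.047 (adjusted p = 0.0209), and the call was lost without WT replicate 3 (0.0661) or 4 (0.0713) or shTST replicate 1 (0.0859) or 4 (0.0521).

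None of the 6 peroxiredoxins, 5 glutathione peroxidases and 2 superoxide dismutases tested in shTST was called by edgeR. Of all 14584 genes tested, 16.1% were called. At an unadjusted p under 0.05, 1 peroxiredoxin and 2 glutathione peroxidases passed, beside 4404 of all genes tested. Of these families DESeq2 called 1 gene, GPX7, and limma-voom called 0. The largest value was that of GPX7, a peroxidase of the endoplasmic reticulum, at 0.25 ± 0.087 (adjusted p = 0.0569).

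In overTST, TXN, the cytosolic thioredoxin (ENSG00000136810, chromosome 9, 110243811 to 110256640), had the largest rise among the members. It stood at 109, 97.1, 118 and 110 CPM in WT, at 126, 118, 112 and 120 in shTST and at 141, 135, 149 and 141 in overTST. All overTST libraries were above all others. The log2 fold change was 0.39 ± 0.056 (adjusted p = 1.3e-05), and 0.21 (adjusted p = 0.00246) after length correction. In shTST it was 0.13 ± 0.053 (95% interval 0.022 to 0.24, adjusted p = 0.0946). The direct difference of −0.25 was called (adjusted p = 6.4e-04) but not after length correction (−0.11, adjusted p = 0.104).

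GPX3, a secreted glutathione peroxidase that contains selenocysteine (ENSG00000211445, chromosome 5, 151020438 to 151028993), stood at 152, 148, 164 and 157 CPM in WT, at 144, 139, 163 and 152 in shTST and at 170, 191, 195 and 204 in overTST. Every overTST library was above every other library. GPX3 rose in overTST (0.29 ± 0.055, adjusted p = 2.0e-04; 0.23 and adjusted p = 0.00103 after length correction), and its log2 difference of shTST from overTST was −0.34 ± 0.055 (adjusted p = 5.0e-05), a call kept under all alternatives.

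BLVRA, which reduces biliverdin to bilirubin (ENSG00000106605, chromosome 7, 43758680 to 43807342), stood at 71.5, 66.9, 74.2 and 77.7 CPM in WT, at 66.2, 68.8, 70.8 and 68.5 in shTST and at 81.3, 93.1, 82.9 and 86.6 in overTST. PRDX6, a peroxiredoxin that also reduces lipid peroxides (ENSG00000117592, chromosome 1, 173477266 to 173488807), stood at 218, 197, 229 and 210 CPM in WT, at 227, 229, 222 and 219 in shTST and at 253, 241, 253 and 253 in overTST. In both genes overTST lay above WT in every library. BLVRA rose by 0.25 ± 0.057 (adjusted p = 0.00166) and PRDX6 by 0.23 ± 0.051 (adjusted p = 0.00107). After length correction neither was called (0.094, adjusted p = 0.178, and 0.12, adjusted p = 0.0638).

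GCLC (ENSG00000001084, chromosome 6, 53497341 to 53616970) went the other way. It stood at 89.4, 86.1, 77.4 and 81.2 CPM in WT, at 76.8, 82.5, 72.2 and 77.0 in shTST and at 77.1, 69.4, 75.0 and 68.4 in overTST. The overTST libraries were all below WT, the nearest by a narrow margin. GCLC fell in overTST (−0.20 ± 0.057, adjusted p = 0.00745), but not after length correction (−0.086, adjusted p = 0.224). In shTST the value was −0.12 ± 0.052 (adjusted p = 0.135).

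By family, 3 of 6 peroxiredoxins, 3 of 5 glutathione peroxidases, 2 of 3 glutaredoxins and 1 of 2 superoxide dismutases rose in overTST, and edgeR, DESeq2 and limma-voom called 0 of them lower. Of all genes 15.7% were called higher, and of genes of up to 2 kb 26.1%. After length correction the count was 0 for the peroxiredoxins and 1 each for the other families. The superoxide dismutase called was then SOD2, the mitochondrial enzyme (0.23, adjusted p = 0.00154), instead of SOD1, the cytosolic one (0.094, adjusted p = 0.149). SOD2 has the longest gene model among the members, at 18985 bases, and 9.7% of it overlaps with ACAT2 on the opposite strand. PRDX1 turned from 0.16 to −0.012. A gene on the opposite strand, MMACHC, covers 24.9% of the exonic bases of PRDX1, and the use of strand in counting is not given in the sources used here.

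Gene length moved with these differences. The members tested have a median exonic length of 2771 bases, against 4479 for all genes tested in overTST. In overTST the log2 fold change fell with length, with a Spearman's rho of −0.61 across the 36 members and −0.40 across all genes, which are not independent replicates. In shTST the values were −0.27 and −0.09. Of the 11 members of up to 2 kb, 6 rose in overTST and none fell, beside 26.1% and 2.40% of all genes of that length. Of the 9 members over 4 kb, 1 rose and 4 fell, beside 9.51% and 28.3%. What the length trend reflects was not tested.

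**Figure D4:**
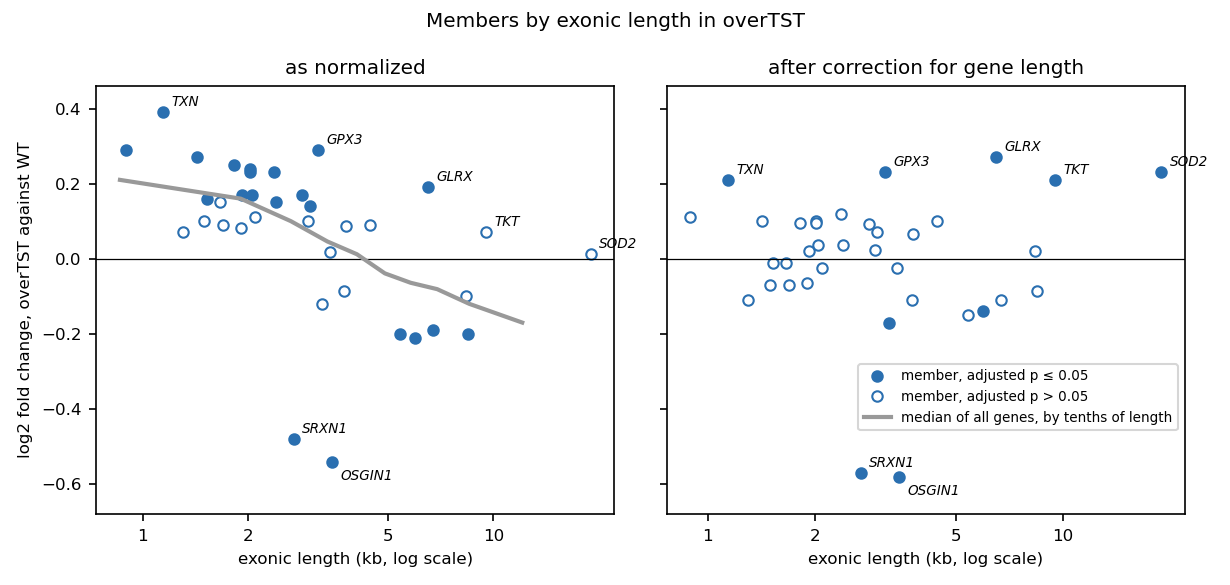
Log2 fold change in overTST against exonic length on a log axis, as normalized (left) and after correction for length (right); points are members, filled where called, and the line is the median of all genes in 10 length classes. The line drops from 0.21 to −0.17, and SRXN1 and OSGIN1 lie far below it.

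Compared directly, 22 of the 36 members differed between shTST and overTST, 20 of them lower in shTST, while 33.0% of all genes were called, 16.9% higher and 16.1% lower. After length correction 16 members were called, 4 higher and 12 lower in shTST, beside 27.8% of all genes. Of the 22 calls 13 were kept under it, and HMOX1 (0.20), GPX7 (0.29) and SOD2 (−0.15) were called that had not been. The 13 calls kept under all 21 alternatives were those of NFE2L2 and GSR, which were higher in shTST, and of GGT1, HMOX2, BLVRA, BLVRB, PRDX5, GPX1, GPX3, GPX4, GLRX, TALDO1 and TKT, which were lower. GSR, which regenerates reduced glutathione, differed by 0.19 ± 0.044 (adjusted p = 0.00197). PRDX5, a peroxiredoxin found in mitochondria and peroxisomes, differed by −0.36 ± 0.058 (adjusted p = 4.6e-05), and GPX4, which protects membranes from lipid peroxides, by −0.35 ± 0.065 (adjusted p = 2.5e-04). TALDO1 and TKT, of the pentose phosphate pathway, differed by −0.26 ± 0.043 (adjusted p = 6.0e-05) and −0.25 ± 0.044 (adjusted p = 1.2e-04).

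Other genes of the same pathways were taken from lists of 45 genes, of which 44 were tested. In shTST 15 of them were called, 2 higher and 13 lower, and in overTST 21, 11 higher and 10 lower. Of all genes 16.1% were called in shTST (6.69% higher and 9.40% lower) and 33.9% in overTST (15.7% higher and 18.2% lower). Among 14 other NRF2 targets, 7 fell and 0 rose in shTST by edgeR (9 and 0 by DESeq2 and by limma-voom). In overTST 5 fell and 2 rose by edgeR (5 and 3 by DESeq2 and by limma-voom). After length correction 8 fell and 0 rose in shTST, and 4 fell and 2 rose in overTST. The 2 that rose in overTST by edgeR were AKR1C2 (0.35 ± 0.053, adjusted p = 1.9e-05) and MGST1 (0.19 ± 0.049, adjusted p = 0.00425). AKR1C2 fell in shTST (−0.18, adjusted p = 0.025), a call lost without WT replicate 1 or shTST replicate 1, 3 or 4. SLC7A11, the cystine importer that supplies cysteine for glutathione, fell in both lines (−0.81 ± 0.078, adjusted p = 7.8e-07, and −0.65 ± 0.097, adjusted p = 1.7e-05). The aldo-keto reductases AKR1B10 (−0.81 and −0.27) and AKR1C1 (−0.48 and −0.16) were also called lower in shTST and overTST, although AKR1C1 shares sequence with AKR1C2 and lost its overTST call after length correction (−0.037, adjusted p = 0.699), with upper-quartile scaling, in the fit of all 12 libraries and without WT replicate 1 or 3 or overTST replicate 1 or 2. NQO1, a quinone reductase often used to read out NRF2, fell in shTST (−0.19 ± 0.045, adjusted p = 0.00672) and had −0.043 ± 0.05 in overTST (adjusted p = 0.547). ABCC2, an export pump for glutathione conjugates, fell in shTST (−0.31) and in overTST (−0.44).

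Of the partners of NRF2, MAFF, a small MAF protein, fell in shTST (−0.47 ± 0.11, adjusted p = 0.00593) and had 0.18 ± 0.11 in overTST (adjusted p = 0.227). BACH1, a repressor that competes with NRF2 for the same elements, fell in overTST (−0.54 ± 0.091, adjusted p = 7.9e-05) and had −0.12 ± 0.083 in shTST (adjusted p = 0.371). TXNIP, an inhibitor of thioredoxin, rose in shTST (0.33 ± 0.069, adjusted p = 0.00262), a call lost in the fit of all 12 libraries (0.0688). In overTST it had −0.49 ± 0.14 (adjusted p = 0.00689), a call lost with robust moderation (0.141), DESeq2 (0.1) and limma-voom (0.0868). The glutathione peroxidases with selenocysteine and the thioredoxin reductases depend on selenoprotein synthesis. Of 6 genes for it, none was called in shTST by edgeR, DESeq2 or limma-voom, and none passed at an unadjusted p under 0.05. Of all 14584 genes tested in shTST, edgeR called 16.1%, and 4404 passed at an unadjusted p under 0.05. In overTST TRNAU1AP rose (0.22 ± 0.083, adjusted p = 0.0407), a call lost without WT replicate 1 or 2 or overTST replicate 2 or 3. SECISBP2 fell in overTST (−0.17 ± 0.065, adjusted p = 0.0445), a call lost after length correction (−0.027, adjusted p = 0.779), with upper-quartile scaling, without mitochondrially encoded genes and without 6 of the 8 libraries in turn. After length correction 2 of the 6 genes were called higher and SECISBP2 was no longer called.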

How the data were processed

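RNA of HepG2 cells was sequenced in 12 libraries, 4 of each group, and groups and replicate numbers come from the sample labels. The authors deposited raw counts per Ensembl gene, whole numbers that are not normalized. The submitters' processing notes name Trimmomatic 0.36, STAR 2.5.2b, featureCounts from Subread 1.5.2 and GRCh38. The annotation release, the treatment of overlapping genes and the use of strand are not given in the sources used here. If reads were assigned without strand, values of genes with an antisense partner are mixed.

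The members, lists and tests were chosen with earlier results of these data known. Genes were filtered with filterByExpr, scaled by TMM and passed to the quasi-likelihood test of edgeR, with Benjamini-Hochberg adjustment over all genes and calls at 0.05. Each comparison with WT used its own 8 libraries, and shTST against overTST used all 12. The standard error was taken as the absolute log2 value over the root of its F statistic, and intervals are 95%. CPM values share 1 TMM scaling of the 12 libraries. The depth of 22911380 to 45120508 counts sets the counting error, and limits from a count of 0 use 3 counts and cover counting error only. Length correction took each gene's log2 CPM (prior count 2) minus its mean over the libraries of the fit. In each library a lowess curve (span 0.3) of these deviations on log2 exonic length was fitted and entered the test as an offset. The procedures were tested on simulated data. Named were NFE2L2, KEAP1 and TST, in each comparison with WT the 6 members with the largest change among those called without overlap, members called in both, the 4 pathway genes with the largest change, and NQO1 and SLC7A11. A further gene of these lists is not reported here. Further genes were named after their values were seen.

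Results were recomputed with DESeq2, with limma-voom (robust), with RLE or upper-quartile scaling, without a filter, with genes kept above 1 CPM in 4 or more libraries, with the other set of libraries in the fit, without mitochondrial genes, with a replicate block, with length correction with and without the block, and without each library in turn. Robust quasi-likelihood moderation was added after seeing the data. With no filter, the prior degrees of freedom of edgeR became infinite in every comparison, so each gene received the variance of the abundance trend and its own spread between replicates was not used. The p-values of that setting (for OSGIN1 in shTST 4.1e-35, with nearly the same fold change) are therefore not tests of single genes and were left out of all ranges of p and counts of kept calls. In the main fits the prior degrees of freedom were 16.0 to 18.2. Software was R 4.3.3, edgeR 4.0.16, limma 3.58.1, DESeq2 1.42.0, Python 3.11.15 and matplotlib 3.10.9.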

Additional observations from a re-analysis of the deposited data

Results flagged for a closer look

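In 111 groups of 4 libraries (the 36 members tested and TST, in 3 lines) the highest or lowest library was compared with its neighbours by Dixon's criterion, and 7 stood apart, where chance gives about 1 in 20 groups, or 5.55. OSGIN1 in WT replicate 2 was at 83.6 CPM, with the other WT libraries at 38.1 to 40.6 CPM, and without it the log2 fold change went from −0.77 to −0.40 in shTST (still called, adjusted p = 2.1e-04, edgeR) and from −0.54 to −0.17 in overTST (call lost, adjusted p = 0.0955). GLRX in overTST replicate 3 was at 83.2 CPM, with the others at 72.0 to 72.3 CPM, and its overTST call was lost without that library (adjusted p = 0.116, edgeR). HMOX2 in shTST replicate 1 was at 79.2 CPM, with the others at 82.7 to 83.3 CPM. PRDX2 in shTST replicate 3 was at 350 CPM, with the others at 315 to 318 CPM. PRDX6 in overTST replicate 2 was at 241 CPM, with the others at 253 CPM. GLRX2 in shTST replicate 2 was at 10.5 CPM, with the others at 12.7 to 13.0 CPM. TST in shTST replicate 3 was at 36.5 CPM, with the others at 33.0 to 33.5 CPM, still below every WT library.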

How the results depend on the processing

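The count of members called was 10 in shTST, 6 to 11 when 1 library was left out (lowest without WT replicate 4) and 8 to 14 under the other alternatives. In overTST it was 21, with 16 to 24 when 1 library was left out, 9 with length correction and 10 with length correction and the replicate block. In the direct comparison it was 22, with 18 to 27 and 16 to 26. The pathway lists gave 15 calls in shTST (11 to 15 when 1 library was left out) and 21 in overTST (18 to 23). The log2 fold change of TST was −0.55 to −0.48 in shTST, 0.21 to 0.29 in overTST and −0.81 to −0.72 in the direct comparison when 1 library was left out. In overTST it was 0.10 (adjusted p = 0.201) with length correction and 0.094 (adjusted p = 0.159) with the block added. Some alternative turned the direction of 7 of the 36 members in shTST, 10 in overTST and 7 in the direct comparison, of which PRDX1, in the last 2 comparisons, had been called. Length correction alone turned 1, 9 and 6. NFE2L2 in shTST (−0.042 to 0.017 when 1 library was left out) was 0.00087 with upper-quartile scaling, 0.0015 without WT replicate 2 and 0.017 without shTST replicate 3. PRDX1 with length correction was −0.012 in overTST and 0.0095 in the direct comparison, and −0.012 and 0.0094 with the block added. The cause was not tested. Upper-quartile scaling moved the share of calls over all genes that were higher in shTST from 41.6% to 52.7%. The setting with no filter used no gene's own spread, so a call kept there says nothing about stability.

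Deviations of same-numbered libraries correlated weakly, at −0.053 to 0.08, and not every library correlated best with its own number. Replicates 1, 2 and 3 of shTST and replicates 1 and 3 of overTST correlated best with the same number in WT. Whether same-numbered libraries belong together was not settled by these values. With the replicate block 14 members were called in shTST, 21 in overTST and 26 in the direct comparison. Over all genes the block moved the calls from 2346 to 2980 in shTST, from 4893 to 5166 in overTST and from 4907 to 5232 in the direct comparison.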
